A study of Mus musculus with 4 samples.

Results

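The genes of the mouse proteasome were followed across 4 Affymetrix MG_U74Av2 arrays, which measure messenger RNA with short probes grouped into probe sets. Members were the genes whose symbol begins with Psma, Psmb, Psmc, Psmd, Psme, Psmf or Psmg, taken from probe sets annotated with a single gene. Psmb8 and Psmb9, which encode interferon-inducible subunits, were left out by that rule. It gave 44 genes, read by 56 probe sets of the 12422 probe sets that are no controls. For the 8 genes with more than 1 probe set, the one with the highest mean log2 signal over the 4 arrays was used. Of the 44 genes, 43 passed the signal filter and were tested among 6843 features. Psmc4 was below the array median on all 4 arrays and was not tested, with signals of 156 in neurospheres, 96.8 and 49.96 in embryoid bodies and 46.2 in adherent cells. A further 3 members reached the median on 1 array only, Psmd2 and Psmd10 in neurospheres and Psmc3ip in adherent cells. By role, 15 members belong to the core particle, 17 to the cap, 7 are assembly chaperones and 3 are activators. No probe set of a single gene gave the inhibitor Psmf1. The last 2 members carry the prefix by name only, since Psmc3ip is a meiotic recombination factor and Psme3ip1 a protein that binds an activator.

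The arrays held 3 kinds of culture, all mouse and with no genetic change named in the labels. One array held neurospheres, floating spheres of neural stem and progenitor cells, grown in DMEM/F12 with FGF2 from the telencephalon of E13.5 mouse embryos; their labels name astrocytes, other glia and oligodendrocytes as contaminants. The other 3 arrays held R1 cells, an embryonic stem (ES) cell line of the inner cell mass, kept in DMEM with LIF and beta-mercaptoethanol. Of these, 2 came from embryoid bodies, clumps kept unattached for 48 hours with LIF still present, and are called aggregation and suspension after their titles. The last was from adherent R1 cells on gelatin. Both embryoid body arrays carry one sample identifier and nothing says that they were separate cultures, so the p-values rest on the spread of this pair alone, possibly a technical one. Their titles name 2 forms of culture, which were treated here as 2 replicates. That spread, and each SD with n = 2, may thus also hold a difference between the forms. Neurospheres and adherent cells have 1 array each, and R1 stands for 1 clonal line. A value here is a linear MAS5 signal brought to a common trimmed mean of 500 per array, and a difference is one of log2(signal + 32), which understates the change of dim genes.

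The proteasome is the protease that destroys proteins tagged with ubiquitin. Its core is a barrel of stacked rings of Psma (alpha) and Psmb (beta) subunits, with the cutting sites of Psmb5, Psmb6 and Psmb7 inside. The cap sits on the ends of the barrel: its base holds the Psmc ATPases that unfold and thread the substrate, and its lid removes the ubiquitin chain. Psme proteins form other caps that open the core without ubiquitin, and Psmg proteins with Psmd5, Psmd9 and Psmd10 help to put core and base together. In human ES cells the complex is known for high activity, and in neural cells for the turnover of regulators of the cell cycle and of differentiation.

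The labels were checked against marker genes. Of 9 pluripotent cell markers, 8 fell in neurospheres by limma's adjusted p, and their summed signal was 2092 in neurospheres, against 60959 and 69158 in embryoid bodies and 59355 in adherent cells. Of 7 neural progenitor markers tested, 5 rose in neurospheres, and of 5 astrocyte markers 3 rose, with sums of 60216 and 18848 in neurospheres and at most 11134 and 1823 on any R1 array. Oligodendrocyte markers, 1 of 3 higher, summed to 2204 in neurospheres and to at most 1504 in R1 cells. Of 5 neuron markers tested 1 rose (Gap43) and 1 fell (Stmn2), with sums of 8378 in neurospheres and at most 6796 in R1 cells, and of 4 microglia markers 1 fell (Cd68), with sums of 2623 in neurospheres, 3216 and 2510 in embryoid bodies and 2315 in adherent cells. The part of such other neural cells in the results below was not tested. In bulk samples fewer cells of a type and less RNA per cell cannot be told apart. The deposited trimmed means were 33.0 and 1501 for aggregation and suspension, 29.9 for neurospheres and 1501 for adherent cells. Only neurospheres and aggregation, and suspension and adherent cells, thus share a scale. The ratio of 3′ to 5′ control probes ran between 0.804 and 0.946 for Gapdh and between 1.03 and 1.20 for actin.

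The first question was whether neurospheres and R1 cells carry the same proteasome transcripts. Most of the set did not differ detectably: of 43 tested genes 3 fell in neurospheres, namely Psme4, Psmb5 and Psmd11, and 0 rose, by limma with a Benjamini-Hochberg adjusted p under 0.05. Over all features 11.9% fell and 8.2% rose by the same call. At limma's unadjusted p under 0.05, 8 members were lower and 0 higher, beside 17.2% and 15.4% of all features, so the share of lower members was near that of all features. The neurosphere array lay below all 3 R1 arrays for 13 members and above all 3 for 9, while 32% and 35% of all features did so. The other 21 members lay inside the R1 range. The median difference over the 43 genes was -0.20, beside 0.10 over all features and -0.22 over the brightest 25% of features, to which 33 of the 43 members belong. Of these 1711 bright features, 447 were called lower and 192 higher. At limma's unadjusted p, 578 were lower and 286 higher, and neurospheres lay below all R1 arrays for 46.5%. Beside these bright features, a smaller share of members was lower.

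**Figure D1:**
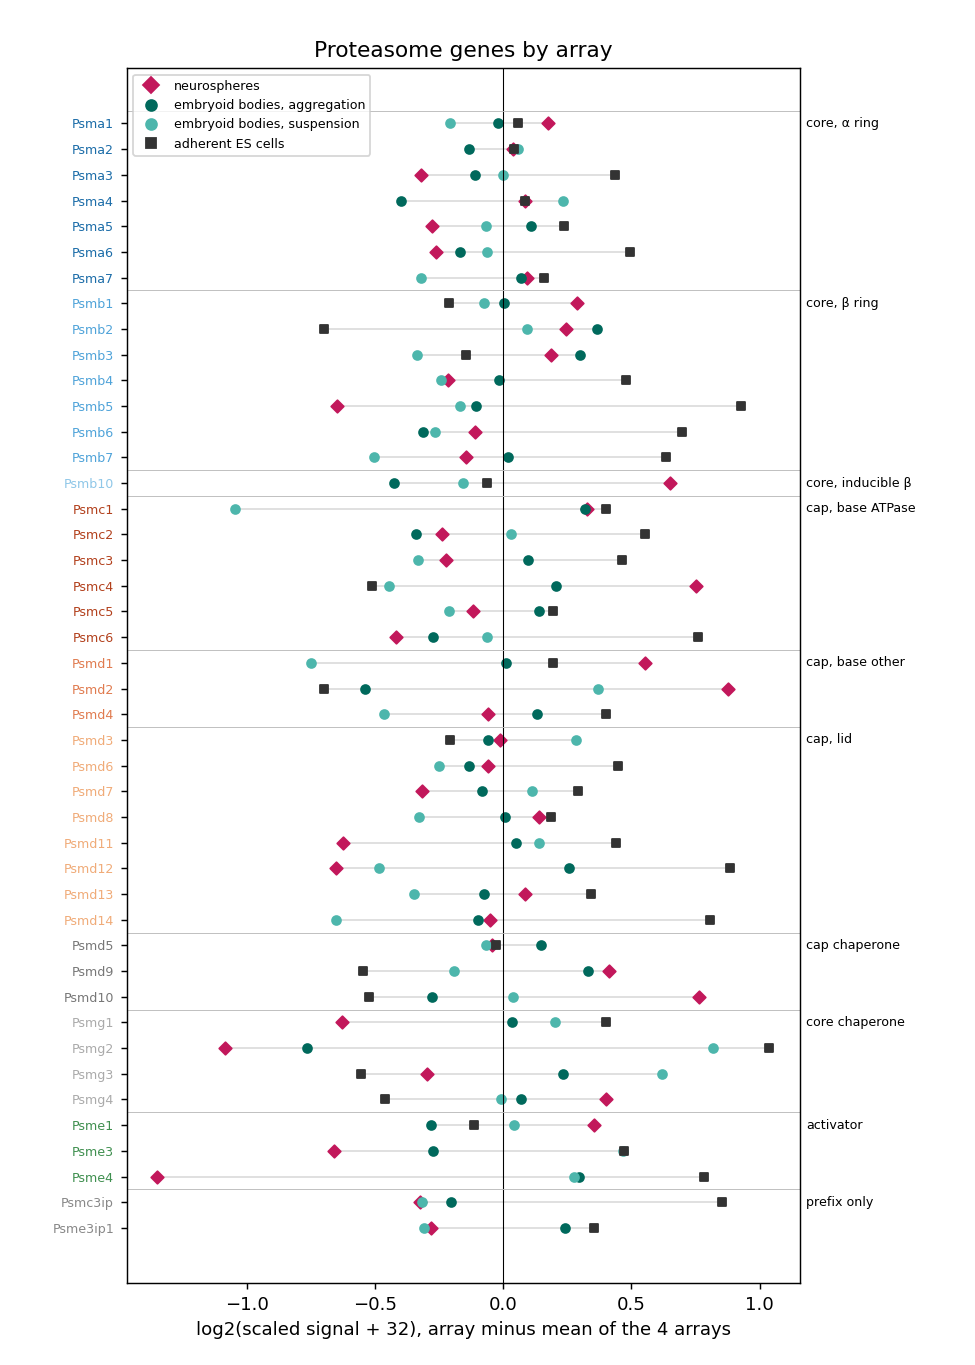
Each row is a member and each point an array, as log2(scaled signal + 32) minus the mean of the 4 arrays (horizontal axis); neurospheres are diamonds, embryoid bodies circles (aggregation dark, suspension light) and adherent cells squares. The adherent array is the highest point for many core and cap genes, and neurospheres stand farthest out for Psme4; Psmc4 was too dim to be tested.

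Psme4 encodes PA200, a large nuclear activator that caps the core by itself and is known for the breakdown of acetylated histones. Its signal was 329 in neurospheres, against 1098 and 1082 in embryoid bodies, a mean of 1090 ± 11.5 (SD, n = 2), and 1550 in adherent cells. All 3 R1 arrays lay far above the neurosphere value. The difference was -1.89 ± 0.35 (SE), with limma's adjusted p of 0.00075. Psme4 was also the one member called lower against embryoid bodies alone, by -1.64 with limma's adjusted p of 0.0043; 10% of features were lower in that contrast and 7.28% higher. It has 1 probe set.

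Psmb5 carries the chymotrypsin-like site of the core, the target of bortezomib. Neurospheres gave 1863, against 2730 and 2618 in embryoid bodies and 5637 in adherent cells. Neurospheres were lowest, embryoid bodies close to each other, and adherent cells far above the rest. Psmb5 fell in neurospheres, by -1.05 ± 0.27 (SE) with limma's adjusted p of 0.0096. The call rests on the adherent array and on the probe set used: against embryoid bodies alone the difference was -0.51 with limma's adjusted p of 0.25, and a dimmer probe set of the gene gave -0.07, with 377 in neurospheres, 423 and 410 in embryoid bodies and 377 in adherent cells.

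Psmd11 is a lid subunit that clamps the cap to the core, and its human form is known for raising proteasome assembly in human ES cells. The array values were 1878 in neurospheres, against 3022 and 3221 in embryoid bodies and 3976 in adherent cells. The 3 R1 arrays lay together, all above neurospheres. Psmd11 fell in neurospheres, by -0.90 ± 0.27 (SE) with limma's adjusted p of 0.025. Its dimmer probe sets gave -0.87 and -1.15. Against embryoid bodies alone the difference was -0.72 with limma's adjusted p of 0.094, past the threshold no more.

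Without the intensity trend in limma's variance none of the 3 passed, with adjusted p of 0.056 for Psme4, 0.16 for Psmb5 and 0.20 for Psmd11. In fits of 2 groups without aggregation or without suspension Psme4 passed, while limma's adjusted p was 0.21 and 0.13 for Psmb5 and 0.28 and 0.24 for Psmd11.

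Against the adherent array alone, 5 members fell in neurospheres and 0 rose, where 10.6% of all features fell and 6.77% rose. Beside the 3 above these were Psmc6, a base ATPase, at -1.18 with limma's adjusted p of 0.018, and Psmd12, a lid scaffold subunit, at -1.54 with limma's adjusted p of 0.034. Psmc6 had 2192 in neurospheres, 2425 and 2817 in embryoid bodies and 5008 in adherent cells. For Psmd12 the signals were 465 in neurospheres, 902 and 527 in embryoid bodies and 1413 in adherent cells. For Psmc6 both embryoid body arrays lay nearer to neurospheres than to adherent cells, while for Psmd12 suspension lay nearer to neurospheres and aggregation nearer to adherent cells on the log2 scale.

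The promoter windows of the 3 genes that fell in neurospheres, and of Psmb6, whose catalytic subunit is set beside Psmb5 below, are printed to show where known binding letters of proteasome gene regulators stand. Each runs from 250 bases before to 50 after the gene's start in the RefSeq annotation of GRCm38.p6, 5′ to 3′ on the gene's strand, with the letters found in capitals.
Psme4 promoter, chr11:30771525-30771824 (+): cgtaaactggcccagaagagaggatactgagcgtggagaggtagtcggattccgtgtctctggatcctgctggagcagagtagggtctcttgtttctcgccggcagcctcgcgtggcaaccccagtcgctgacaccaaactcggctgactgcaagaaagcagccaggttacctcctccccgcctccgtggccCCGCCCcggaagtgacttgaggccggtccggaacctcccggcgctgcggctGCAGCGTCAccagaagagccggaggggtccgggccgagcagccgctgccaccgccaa
Psmb5 promoter, chr14:54617946-54618245 (-): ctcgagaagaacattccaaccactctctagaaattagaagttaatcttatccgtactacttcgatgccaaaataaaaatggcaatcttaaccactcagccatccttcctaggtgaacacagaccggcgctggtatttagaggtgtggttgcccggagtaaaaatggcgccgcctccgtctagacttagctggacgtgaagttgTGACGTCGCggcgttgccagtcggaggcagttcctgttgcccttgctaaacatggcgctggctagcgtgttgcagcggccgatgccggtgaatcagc
Psmd11 promoter, chr11:80428365-80428664 (+): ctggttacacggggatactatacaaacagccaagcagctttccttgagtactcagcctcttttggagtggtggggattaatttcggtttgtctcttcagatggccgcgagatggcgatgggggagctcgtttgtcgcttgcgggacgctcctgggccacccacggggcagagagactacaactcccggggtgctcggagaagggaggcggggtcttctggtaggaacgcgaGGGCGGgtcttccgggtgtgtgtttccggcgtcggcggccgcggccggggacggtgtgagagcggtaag
Psmb6 promoter, chr11:70525107-70525406 (+): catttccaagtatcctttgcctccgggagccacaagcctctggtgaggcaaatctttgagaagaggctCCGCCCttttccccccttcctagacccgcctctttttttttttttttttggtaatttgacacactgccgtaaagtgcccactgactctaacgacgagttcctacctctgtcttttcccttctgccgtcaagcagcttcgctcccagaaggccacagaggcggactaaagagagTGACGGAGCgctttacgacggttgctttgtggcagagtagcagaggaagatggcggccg
The searched letters were TGACNNNGC, the core of the antioxidant response element that factors such as Nfe2l1 and Nfe2l2 bind; CCAAT, the box of NF-Y; and GGGCGG, the GC box of Sp factors. Both strands were searched, and matches of different patterns did not overlap in these 4 windows. Psmb5 holds TGACNNNGC at -47 to -39 from its start, and Psmb6 holds it at -9 to -1. In Psme4 it stands on the other strand at -7 to 2. A GC box is found in Psmd11 at -19 to -14, in Psme4 at -58 to -53 and in Psmb6 at -182 to -177, the last 2 on the other strand.

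Promoter windows were found for 37 of the 44 members. TGACNNNGC stood in 6 of them, or 16.2%, beside 14% of 27025 genes: Psmb5, Psmb6, Psmc6, Psmd12, Psmd9 and Psme4. CCAAT stood in 14 members, or 37.8%, beside 41.1% of all genes. The GC box stood in 22, or 59.5%, beside 38.2%. It was in 5 of 12 core and 10 of 14 cap promoters. These matches describe letters only.

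The core was then taken part by part. In neurospheres the 15 core genes had a median difference from R1 cells of 0.04, with Psmb5 lower and 0 higher by the call. The array lay below all R1 arrays for 4 of them (Psma3, Psma5, Psma6 and Psmb5) and above all for 3 (Psma1, Psmb1 and Psmb10), beside 32% and 35% of all features. The alpha ring, which gates the barrel, was narrow: its 7 differences ran between -0.51 for Psma3 and 0.20 for Psma1, and 0 passed the test. Psma3 had 4678 in neurospheres, against 5430 and 5856 in embryoid bodies and 7940 in adherent cells. For Psma2 the 4 signals were 4110 in neurospheres, 3642 and 4165 in embryoid bodies and 4125 in adherent cells, with no array standing apart. Psma6 had 3543 in neurospheres, 3788 and 4078 in embryoid bodies and 6022 in adherent cells, so that adherent cells alone stood out. Psma5 gave 2565 in neurospheres, 3362 and 2971 in embryoid bodies and 3683 in adherent cells, with neurospheres lowest. Psma4 had 3462 in neurospheres, 2465 and 3845 in embryoid bodies and 3464 in adherent cells, where the embryoid body arrays were farther from each other than the cell types. The remaining alpha genes, Psma1 and Psma7, were at 0.20 and 0.08. The 7 constitutive beta genes spread more, with a median of -0.32 and a range of -1.05 for Psmb5 to 0.48 for Psmb2.

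Psmb6 carries the caspase-like site. It had 2799 in neurospheres, against 2427 and 2509 in embryoid bodies and 4934 in adherent cells. Neurospheres lay inside the R1 range, at -0.32 ± 0.27 (SE) with limma's adjusted p of 0.44. Psmb7, with the trypsin-like site, had 1703 in neurospheres, 1913 and 1320 in embryoid bodies and 2955 in adherent cells, again inside the range, at -0.34 ± 0.31 (SE) with limma's adjusted p of 0.47. In all 3 catalytic genes the adherent array was the highest by the probe set used. For Psmb5 and Psmb7 that set is of a class whose suffix marks probes shared between transcripts or chosen under relaxed rules. Psmb7 has no other set. By the dimmer set of Psmb5 adherent cells, at 377, lay below both embryoid body arrays. Psmb10 encodes the inducible subunit that replaces Psmb7 in the immunoproteasome. Its signal was 762 in neurospheres, against 344 and 421 in embryoid bodies and 451 in adherent cells. Neurospheres were above every R1 array, but the difference of 0.83 ± 0.45 (SE) did not pass the test, with limma's adjusted p of 0.21.

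**Figure D2:**
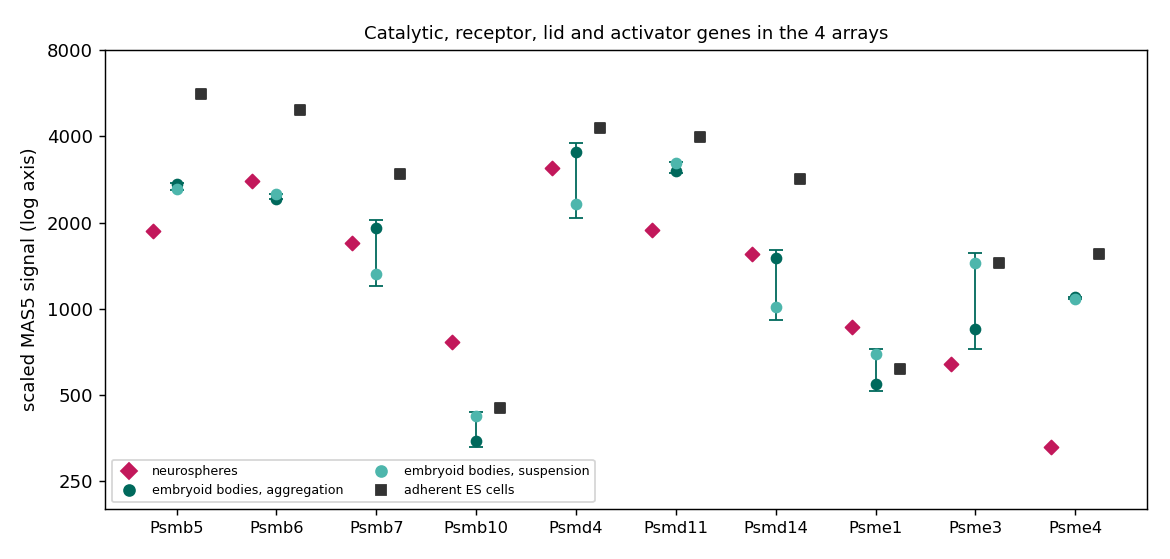
Scaled MAS5 signal (log axis) of the genes given array by array; for each gene the neurosphere array stands left, the 2 embryoid body arrays in the middle with a bar of their mean ± SD (n = 2), and the adherent array right. By the probe sets used, adherent cells are highest for all genes shown but Psmb10 and Psme1, for Psme3 by 1444 against 1441 in suspension. Neurospheres are lowest for Psmb5, Psmd11, Psme3 and Psme4, the last at 329.

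The cap gave a median of -0.19 in neurospheres over its 16 tested genes, with Psmd11 lower and 0 higher by the call. Neurospheres lay below all R1 arrays for 4 (Psmc6, Psmd7, Psmd11 and Psmd12) and above all for 2 (Psmd1 and Psmd2). Core and cap thus each held 4 genes below the R1 arrays and 1 called lower. Of all features 32% lay below all R1 arrays and 35% above, and 11.9% were called lower and 8.2% higher. Neither part held a larger share of lower genes than all features. The 5 tested base ATPases had a median of -0.40, from -0.72 for Psmc6 to 0.31 for Psmc1. The 8 lid genes had a median of -0.23, from -1.04 for Psmd12 to 0.13 for Psmd8. Of the ATPases, Psmc2 had 1944 in neurospheres, 1812 and 2350 in embryoid bodies and 3393 in adherent cells, and Psmc3 had 1438 in neurospheres, 1800 and 1329 in embryoid bodies and 2333 in adherent cells. Both were highest in adherent cells, with neurospheres inside the R1 range. Psmc5 ran from 1086 to 1452 over the 4 arrays. In the lid, Psmd6 had 2309 in neurospheres, 2196 and 2021 in embryoid bodies and 3301 in adherent cells, and Psmd7, which pairs with the metalloprotease Psmd14, had 1387 in neurospheres, 1639 and 1880 in embryoid bodies and 2134 in adherent cells. Neurospheres were lowest for Psmd7 and inside the R1 range for Psmd6. Psmd13, Psmd3 and Psmd8 were at 0.02, 0.04 and 0.13, with neurospheres inside the R1 range for each. The 3 other base genes were Psmd1, Psmd2 and Psmd4. Psmd1, a large scaffold of the base, had 4447 in neurospheres, against 3042 and 1781 in embryoid bodies and 3465 in adherent cells. The difference of 0.64 ± 0.31 (SE) did not pass the test, with limma's adjusted p of 0.16. The scaffold Psmd2 was dim and reached the array median in neurospheres only, with 326 in neurospheres, 102 and 219 in embryoid bodies and 87.7 in adherent cells, at 1.27 ± 0.75 (SE).

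Psmd4 is the receptor that binds ubiquitin chains. It had 3094 in neurospheres, against 3543 and 2328 in embryoid bodies and 4272 in adherent cells, at -0.18 ± 0.29 (SE) with limma's adjusted p of 0.71. Psmd14 is the metalloprotease of the lid that cuts the chain off. Its array values were 1552 in neurospheres, 1500 and 1012 in embryoid bodies and 2842 in adherent cells, at -0.27 ± 0.32 (SE) with limma's adjusted p of 0.59. Neurospheres lay within the R1 range for both genes.

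The second question was whether 48 hours as unattached bodies changed these genes in R1 cells. By the call 0 members were higher and 0 lower in embryoid bodies than in adherent cells, where 0.263% of all features were higher and 0.0877% lower. Without the adjustment, limma's p was under 0.05 for 2 members higher and 10 lower, beside 8.51% and 5.86% of all features. The direction of the signals was lopsided: both embryoid body arrays lay below the adherent array for 30 of 43 members and above it for 8, beside 32.7% and 42.2% of all features. In the other 5 members the embryoid body arrays lay on either side. Among the brightest 25% of features the share with both below was 42.9%. The median over the members was -0.35, beside 0.10 over all features and -0.05 over the brightest 25%.

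Set side by side, the cap had a lower median than the pooled core in this contrast, but not than the beta genes of the core. The cap had a median of -0.57 and both embryoid body arrays below the adherent one for 14 of 16 genes, the exceptions being Psmd2 and Psmd3. The core had a median of -0.23 and 10 of 15 such genes. Both arrays lay below the adherent one for 32.7% of all features and 42.9% of the brightest 25%. Within the core the 7 constitutive beta genes had a median of -0.61 and the 7 alpha genes one of -0.22. Taken one by one, aggregation was at -0.37 for the cap and -0.36 for the core from the adherent array, and suspension at -0.70 and -0.31. The gap between cap and pooled core thus came with the suspension array. The constitutive beta genes were at -0.50 in aggregation and -0.72 in suspension, and the alpha genes at -0.18 and -0.31. No test of core against cap was made. Neurospheres minus adherent cells gave -0.49 for the cap and -0.07 for the core, with -0.69 for its constitutive beta and -0.07 for its alpha genes.

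**Figure D3:**
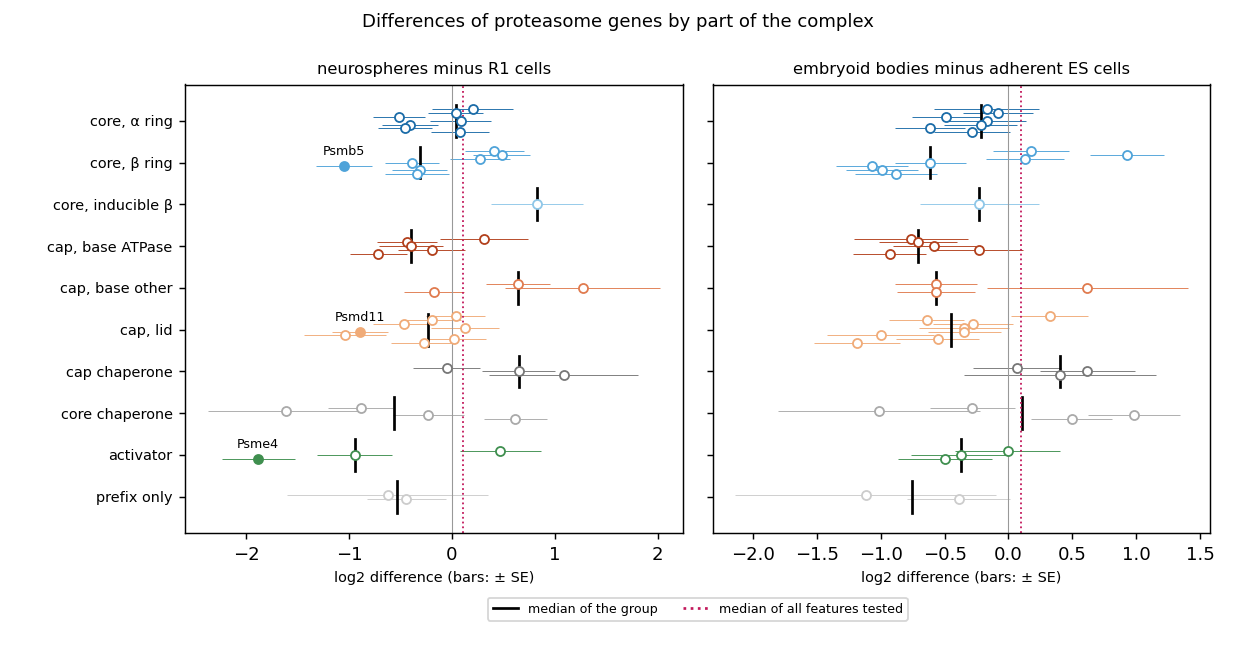
Log2 differences of the 43 tested genes (horizontal axis, bars are the SE of the fit) by part of the complex; filled points pass limma's adjusted p under 0.05. Black ticks are the median of each group and the dotted line that of all features tested, 0.10 in both panels. Tested base ATPase genes all lie left of 0 on the right, with a median of -0.71.

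The genes with the lowest values stood in both parts. Psmd14 averaged 1256 ± 345 in embryoid bodies (SD, n = 2) against 2842 in adherent cells, a difference of -1.18 ± 0.34 (SE) with limma's adjusted p of 0.13. For Psmb5 the embryoid body mean was 2674 ± 79.8 (SD, n = 2) against 5637 in adherent cells, at -1.07 ± 0.28 (SE) with limma's adjusted p of 0.11, but the direction depends on the probe set, since the dimmer one gave 0.13 and the mean of both -0.47. For Psmb6 the mean was 2468 ± 58.3 in embryoid bodies (SD, n = 2) against 4934 in adherent cells, at -0.99 ± 0.28 (SE) with limma's adjusted p of 0.14. For Psmb6 and Psmd14 both embryoid body arrays lay below the neurosphere array as well. Psmb4, a beta subunit with no cutting site, was at -0.61. Psmb7 was at -0.88 ± 0.32 (SE) with limma's adjusted p of 0.23, and Psmc6 at -0.93 ± 0.29 (SE) with limma's adjusted p of 0.18. All 5 tested base ATPases lay below the adherent array on both embryoid body arrays, from -0.93 to -0.23, where 32.7% of all features did. The untested and dim Psmc4 went the other way, with 96.8 and 49.96 in embryoid bodies and 46.2 in adherent cells. Of the dimmer sets of Psmc3, one had 1425 and 1129 in embryoid bodies, on either side of 1197 in adherent cells, and the other was at -0.17. In the lid, Psmd12 was at -0.9995, Psmd6 at -0.64, Psmd13 at -0.56, Psmd8 at -0.35 and Psmd7 at -0.28. In the alpha ring the differences ran from -0.61 for Psma6 to -0.08 for Psma2.

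Psmb2, a beta subunit with no cutting site, went the other way. It had 3959 and 3272 in embryoid bodies, against 1876 in adherent cells, at 0.93 ± 0.29 (SE) with limma's adjusted p of 0.18. Both embryoid body arrays and the neurosphere array, at 3644, were well above the adherent one. Psmb1, another such subunit, was at 0.18, and Psmb3 at 0.13 with its embryoid body arrays on either side of the adherent one. Psmd3, a lid subunit, had 2412 and 3069 in embryoid bodies, against 2171 in adherent cells, at 0.32 ± 0.30 (SE). These differences did not pass the test.

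The adherent array had a lower median and lower dim signals than the others. Its median was 178, against 242 in neurospheres and 225 and 236 in embryoid bodies, and 10% of its probe sets lay under 17.4, against 33.8 in neurospheres and 29.5 and 33.7 in embryoid bodies. After quantile normalization, which gives all arrays one distribution, embryoid bodies minus adherent cells had a median of -0.30 over the members, -0.45 over the cap and -0.21 over the core. A single adherent array cannot be told apart from the adherent state.

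The 3 activators differed among themselves. Psme4 has been described above. Psme3 forms the nuclear PA28 gamma ring, which acts on the cell cycle inhibitor p21. It had 640 in neurospheres, against 847 and 1441 in embryoid bodies and 1444 in adherent cells, at -0.95 ± 0.37 (SE) with limma's adjusted p of 0.078. Neurospheres were lowest, while aggregation lay nearer to them than to the other R1 arrays. Psme1, which interferon induces and which forms a ring with Psme2, had 866 in neurospheres, against 547 and 692 in embryoid bodies and 618 in adherent cells, at 0.47 ± 0.39 (SE) with limma's adjusted p of 0.43. Psme2 is not described, because the 2 proteasome probe sets that carry several gene names were left out. In embryoid bodies minus adherent cells Psme4 was at -0.50, Psme3 at -0.38 and Psme1 at -0.01.

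Of the 7 chaperones 0 passed the test in either contrast. In neurospheres the chaperones of the base were at 1.09 for Psmd10, 0.65 for Psmd9 and -0.05 for Psmd5. The core chaperone pair Psmg1 and Psmg2, which act as a heterodimer, was at -0.89 ± 0.32 (SE) and -1.62 ± 0.76 (SE), and Psmg4 at 0.62 ± 0.30 (SE). Psmg1 had 847 in neurospheres, against 1360 and 1532 in embryoid bodies and 1763 in adherent cells, with limma's adjusted p of 0.056. Psmg2 had 69.4 in neurospheres, against 94.5 and 348 in embryoid bodies and 410 in adherent cells, with limma's adjusted p of 0.14. Neurospheres were lowest for both, but aggregation was close to them for Psmg2. Psmg3, the partner of Psmg4, had 1243 and 1637 in embryoid bodies, against 706 in adherent cells, at 0.98 ± 0.36 (SE) with limma's adjusted p of 0.23. Beside 42.2% of all features, both embryoid body arrays lay above the adherent one for 2 genes each of cap and core. They did so for 4 of 7 chaperones, namely Psmd9, Psmd10, Psmg3 and Psmg4. Of these Psmd10 was under the array median on all 3 R1 arrays. Psmg2 was at -1.01 in this contrast. The prefix-only genes were at -0.62 for Psmc3ip and -0.44 for Psme3ip1 in neurospheres, and at -1.12 and -0.39 in embryoid bodies, with 0 of 2 past the test. Psmc3ip passed the signal filter through the adherent array alone, so its negative values are not independent of that filter. It is counted among the 13 members below all R1 arrays and the 30 with both embryoid body arrays below the adherent one.

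On the scale of log2(signal + 32), suspension and aggregation were at least 2-fold apart for 2 members, Psmc1 and Psmg2, where 14.3% of all features were. With 1 added in place of 32 the count was 3. On the signals themselves the dim Psmd2, with 219 in suspension and 102 in aggregation, is also past 2-fold. Psmc1, a base ATPase, had 504 in suspension, against 1351 in aggregation, a difference of -1.37. The neurosphere array at 1359 and the adherent array at 1431 were close to aggregation, so suspension stood alone. Psmg2 had 348 in suspension and 94.5 in aggregation, a difference of 1.59. Each value is from 1 array, so there is no test, and the 2 arrays were deposited on different scales.

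For the 8 genes with several probe sets, the dimmer sets did not always follow the one used. In neurospheres minus R1 cells Psmb1 gave 0.41 with its brightest set and 1.03 and 1.39 with the others, and Psmd11 gave negative values with all 3. Signs differed for Psmc5 (-0.20 against 1.20), Psmg3 (-0.23 against 1.02) and Psme1 (0.47 against -0.49), where the dimmer sets of Psmc5 and Psme1 were below the median on every array. In embryoid bodies minus adherent cells, Psmb4 gave -0.61 with its brightest set and 1.26 and 1.63 with the dimmer ones, and Psmg3 gave 0.98 against -0.36. Signs also differed for Psmb5 (-1.07 against 0.13), for 1 of the dimmer sets of Psmd11 (-0.35 against 0.40) and for 1 of Psmc3 (-0.58 against 0.08). So did those of Psme1 (-0.01 against 0.23). Of the members' sets 8 are of classes whose suffix marks probes shared between transcripts or chosen under relaxed rules. They are those of Psma3, Psmb4, Psmb5, Psmb7, Psmc3, Psmd9, Psmd12 and Psmg3.

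**Figure D4:**
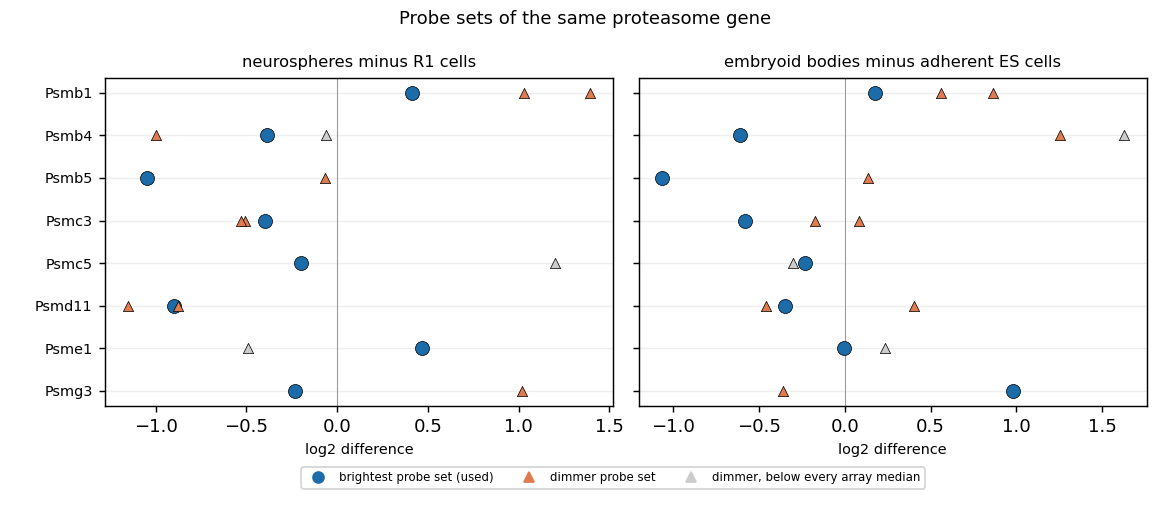
Log2 differences (horizontal axis) of every probe set of the 8 members with more than 1; circles are the sets used, triangles the dimmer sets, grey where below the median of every array. The sets of Psmd11 lie together on the left panel, while Psmb5 differs between its 2 sets, at -1.05 and -0.07.

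The wider pathway was read from 8 lists of 135 genes, of which 82 were tested. In neurospheres 3 rose and 8 fell, where 8.2% of all features rose and 11.9% fell. These shares also stand beside the neurosphere counts of each list below. In embryoid bodies 0 passed in either direction, where 0.263% of all features were higher and 0.0877% lower. By limma's unadjusted p, 3 were higher there and 6 lower, beside 8.51% and 5.86% of all features. Among 15 proteasome partners 2 rose and 0 fell, one a builder and one a part of the complex. Pomp, the chaperone that completes the core, had 2856 in neurospheres, against 1389 and 1347 in embryoid bodies and 1194 in adherent cells, at 1.14 ± 0.30 (SE) with limma's adjusted p of 0.011. Sem1, a small lid subunit whose symbol lacks the prefix, had 5184 in neurospheres, against 2263 and 1755 in embryoid bodies and 2017 in adherent cells, at 1.36 ± 0.29 (SE) with limma's adjusted p of 0.0021, from a probe set of a relaxed class. In both genes neurospheres were above all R1 arrays, and the R1 arrays lay close together.

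Of 9 regulators of proteasome genes 1 fell, Nfyb, a subunit of NF-Y, at -1.45 with limma's adjusted p of 0.013. Nfe2l1, the factor that restores proteasome genes when the protease is blocked, was at -0.31 and did not pass. Nfe2l2, named above for the same promoter letters, was at -0.94 with limma's adjusted p of 0.053, just short of the threshold. Its neurosphere signal lay below all R1 arrays. Among 18 ubiquitin-conjugating enzymes Ube2r2 rose by 1.06 and passed in 7 of 14 tested alternatives, while Cdc34 fell to 912 in neurospheres, against 3007 and 3006 in embryoid bodies and 3991 in adherent cells (-1.89; with all its probe sets averaged -0.59, with limma's adjusted p of 0.39), and Ube2s, which extends chains for the anaphase-promoting complex, fell by 1.18. Of 15 cullin ligase genes Ddb1 fell (-1.15), and of 9 COP9 signalosome genes, a complex built like the lid, Cops2 fell (-1.79). The COP9 list had a median of -0.41 in embryoid bodies minus adherent cells, with 3 of 9 lower by limma's unadjusted p, where 5.86% of all features were. Of 4 tested genes of interferon response and class I presentation Irf1 fell (-1.90), with limma's adjusted p of 0.037, and passed in 6 of 14 tested alternatives. Of 10 heat shock and related genes Hsp90aa1 (-2.26) and the autophagy receptor Sqstm1 (-2.17) fell. The activating enzymes Uba3 and Uba7, the 2 tested genes of their list, were at -0.40 and -0.39 and did not pass.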

How the data were processed

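Total RNA was extracted and biotin-labelled for 1 array per sample, per the labels' protocols. The deposited values are MAS5 signal intensities on a linear scale, 1 per probe set, as the authors deposited them, with MAS5 named per the submitters' processing notes; the sources used here give no version, scaling target or detection calls. The 66 control probe sets were left out. From this intensity table all arrays were brought to one 2% trimmed mean, 500, 32 was added and log2 taken. Probe sets were named through the platform annotation (10833 with 1 gene, 396 with several, 1193 with none), the brightest was kept per gene, and a feature was kept if it reached the array median on at least 1 array, giving 6843 features. limma 3.58.1 (R 4.3.3) was fitted to 3 groups over all 4 arrays, with an intensity trend, 1 residual degree of freedom and a prior of 17.34, and Benjamini-Hochberg adjustment over all features at 0.05, two-sided. The level in R1 cells is the average of embryoid bodies (their mean) and adherent cells. With these few arrays the prior is imprecise; the procedure was tested on simulated data. Every member is accounted for; given array by array were the genes called in either of the main contrasts, the catalytic genes, Psmb10, Psmd4, Psmd14 and the activators, while of each pathway list the called genes with the largest differences were named, or those with the highest mean where none was called; the other members named were picked after their values were seen, as examples of their group. Of the regulators of proteasome genes, Nfe2l1 and Nfe2l2 were named without a call. Members and lists were chosen with earlier results of these data known. Alternatives covered scaling, filter, added value, probe sets, grouping and left-out arrays.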

Additional observations from a re-analysis of the deposited data

How the results depend on the processing

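No paired analysis was possible because neurospheres and adherent cells have 1 array each. Without the intensity trend 0 members were lower in neurospheres (0 pathway genes higher, 1 lower), where 3.58% of all features were lower and 3.2% higher. Scaling to the array median gave 9 members lower in neurospheres and 10 in embryoid bodies (pathway 13 and 6), where 17.6% and 5.38% of all features were lower, and medians of -0.45 and -0.72 over all members, -0.22 and -0.59 over the core and -0.45 and -0.94 over the cap; it moved all features to -0.14 and -0.25. Averaging probe sets, embryoid bodies alone and 2 groups each left 1 member lower, the adherent array alone 5, and 2 groups 1 pathway gene higher. Of all features, 10.6% were lower for averaged probe sets, 10% for embryoid bodies alone and 10.6% for the adherent array alone. With 2 groups 8.27% were lower and 5.57% higher. Leaving out either embryoid body array left 1 member lower (Psme4), with 0 to 1 pathway genes higher and 4 to 5 lower. There 5.85% to 6.59% of all features were lower and 3.93% to 4.81% higher. The neurosphere median of the core was 0.089 after quantile normalization, 0.077 without the special probe set classes, 0.097 against embryoid bodies, -0.065 against adherent cells, -0.096 against aggregation, -0.14 by symbol prefix and -0.075 to -0.020 without an embryoid body array. That of the cap was 0.013 against embryoid bodies, -0.49 against adherent cells and 0.028 against aggregation; that of all members was -0.059 without those classes, 0.017 against embryoid bodies, -0.46 against adherent cells and -0.083 with 2 groups. In embryoid bodies minus adherent cells the median of all members was -0.30 after quantile normalization, -0.28 for averaged probe sets, -0.28 without those classes and -0.41 to -0.36 without either array, and that of the core -0.17 without those classes and -0.36 to -0.31. It kept its sign over all members, core and cap in each of these. Signs turned for Psmb5 in embryoid bodies (0.13 without those classes), for Psmb6, Psmb7, Psmd4 and Psmd14 against embryoid bodies alone (0.18, 0.10, 0.11 and 0.32), for Psmb6 and Psmd14 against aggregation (0.20 and 0.048), and for Psme1 in embryoid bodies (0.16 without aggregation). Psme4 passed in 13 of 14 tested alternatives, Psmb5 in 7 and Psmd11 in 6. The causes were not tested. The runs on the pathway lists, single genes and the 2-fold count were chosen after seeing the data. With 1 array of neurospheres and of adherent cells, the number of arrays limits the precision, and signals below about the array median were not separated from background.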
